A study of Mus musculus with 24 samples.

Results

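The comparison was IGF-1 against vehicle in mouse primary cortical astrocytes labelled as insulin receptor knockout (IRKO). It rested on 8 of the 24 libraries of the series, chosen by their sample titles: 4 IRKO libraries treated with IGF-1 and 4 treated with vehicle. The cells came from the cortex of newborn pups with a floxed insulin receptor gene (IRf/f), and the labels state that other cell types were shaken off during culture. IRKO cells were made by infecting these floxed cells overnight with an adenovirus carrying Cre:GFP, and the floxed controls (IRflox) received an adenovirus carrying GFP alone, so genotype and virus cannot be told apart. After 5 more days the cells were starved of serum overnight and given 100 nM IGF-1, 100 nM insulin or vehicle for 6 h, and poly-A RNA was sequenced as 150 bp pairs without strand information. The 4 libraries of a group are numbered, but the labels do not say that they are separate cultures. The p-values therefore reflect scatter among libraries that could be technical alone.

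Insulin-like growth factor 1 (IGF-1) signals through its own receptor tyrosine kinase, Igf1r, and at high doses also binds the insulin receptor. Both receptors act through the adaptors Irs1 and Irs2 on PI3-kinase and AKT. AKT keeps the FOXO transcription factors out of the nucleus, which lowers the genes they activate, and it activates the mTORC1 kinase, which favours ribosome production and SREBP-driven lipid synthesis and holds back autophagy. A second branch runs through RAS and the MAP kinases. In brain, astrocytes make much of the cholesterol that other cells use and supply lactate and glutamine to neurons.

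Across the 8 libraries, gene counts summed to 16128011 to 19008077, which was 4.64 to 4.92% more than the number of reads that overlapped genes. The share of reads outside genes ranged from 16.9 to 22.5% with vehicle and from 16.6 to 21.4% with IGF-1. The first principal component of the 8 libraries held 51.6% of the variance and placed the vehicle libraries apart from the IGF-1 libraries. Of 14 astrocyte markers, 13 were abundant enough to test. The summed level of all 14 was 4807 to 5099 CPM (counts scaled to the same library total) with vehicle and 4631 to 4667 CPM with IGF-1. Against this, 15 microglia markers summed to 1736 to 1765 CPM and 1450 to 1553 CPM, 11 oligodendrocyte lineage markers to 332 to 355 CPM and 461 to 493 CPM, 12 neuron markers to 130.0 to 142 CPM and 149.7 to 160.0 CPM, 11 fibroblast and mural markers to 281 to 326 CPM and 303 to 320 CPM, and 6 ependymal markers to 199 to 239 CPM and 171 to 184 CPM. Endothelial markers summed to 8.96 to 12.5 CPM and 9.32 to 11.5 CPM, with Cldn5 at 0 in all 8 libraries and Tie1 at 0 in the IGF-1 libraries, as was the ependymal marker Tmem212. CPM does not correct for gene length, so levels are compared between groups and not between genes.

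The target of the deletion was checked first. Insr, which encodes the insulin receptor, was at 39.7, 37.7, 40.5 and 43.7 CPM in the 4 IRKO vehicle libraries and at 29.0, 29.6, 30.3 and 32.3 CPM in the 4 IRKO IGF-1 libraries. The IRflox vehicle libraries were all higher, at 58.8 to 66.9 CPM, and under vehicle IRKO was lower by a log2 difference of -0.61 (SE 0.0546, adjusted p = 3.0e-10). The counts are for whole genes, so transcripts that lack only the deleted exons are counted too and the size of the difference does not measure the loss of the receptor. Igf1r itself did not differ between the genotypes past the test under vehicle (log2 difference 0.06, SE 0.0379, adjusted p = 0.351).

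Promoters of 5 genes with large changes are shown, chosen because they hold a match to 1 of 2 short motifs: the FOXO motif TGTTTAC, searched on both strands, or the E-box CACGTG, which reads the same on both strands. Of the 24 genes with the largest changes 18 had a promoter sequence, and 6 of the 18 held either motif and 12 held neither. Neither motif can hold the other. Sequences are from RefSeq on GRCm38.p6, 5′ to 3′ on the gene's own strand, with the motif in capitals and positions given as the offset of the motif's first base from the annotated start. Ypel3 (chr7:126776977-126777006, plus strand, motif at 25), Tmem140 (chr6:34863018-34863147, plus strand, motifs at -116 and -5) and Crebrf (chr17:26715400-26715649, plus strand, motifs at -125 and -14) fell with IGF-1. Hsd17b7 (chr1:169969242-169969455, minus strand, motif at -143) and Ngef (chr1:87573871-87574120, minus strand, motif at -68) rose.
Ypel3: ctggtctcggtGTAAACAagtcgaggcggc
Tmem140: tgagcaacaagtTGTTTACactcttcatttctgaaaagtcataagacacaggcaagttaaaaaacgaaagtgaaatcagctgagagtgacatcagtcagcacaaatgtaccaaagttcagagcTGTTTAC
Crebrf: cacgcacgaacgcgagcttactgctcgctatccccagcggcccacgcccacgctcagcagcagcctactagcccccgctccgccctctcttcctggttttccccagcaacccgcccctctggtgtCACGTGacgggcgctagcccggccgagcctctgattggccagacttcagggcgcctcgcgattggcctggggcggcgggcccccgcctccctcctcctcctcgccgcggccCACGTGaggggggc
Hsd17b7: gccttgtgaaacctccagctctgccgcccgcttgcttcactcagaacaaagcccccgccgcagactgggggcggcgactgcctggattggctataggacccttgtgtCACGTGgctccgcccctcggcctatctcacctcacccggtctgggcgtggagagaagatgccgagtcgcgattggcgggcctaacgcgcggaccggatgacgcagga
Ngef: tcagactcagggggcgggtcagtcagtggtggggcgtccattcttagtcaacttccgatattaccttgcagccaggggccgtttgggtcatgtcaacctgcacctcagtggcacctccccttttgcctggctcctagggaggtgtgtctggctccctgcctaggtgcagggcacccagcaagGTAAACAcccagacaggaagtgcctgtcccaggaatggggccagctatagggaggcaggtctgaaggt
The FOXO motif thus stands in promoters of genes that moved in either direction. Over promoters of 250 bases before to 50 after the start, available for 11592 of the 15599 tested genes, it was present in 2.62% of 14847 promoters, in 6.24% of the 866 promoters of genes that fell past 1.5-fold and in 1.6% of the 749 promoters of genes that rose past 1.5-fold. The E-box was present in 9.37% of all promoters, 8.78% of the falls and 11.9% of the rises. The SREBP-type motif TCACNCCAC was in 1.17% of all promoters, 1.04% of the falls and 1.47% of the rises. The cyclic AMP element TGACGTCA was in 2.88%, 1.96% and 2.54%, and the ATF4-type motif TGATGNAA in 2.3%, 2.31% and 1.74%, in the same order. Of 25 promoters of the sterol synthesis genes described below, 6 held the E-box, 3 the ATF4-type motif, 1 the SREBP-type motif and 0 the FOXO motif or the cyclic AMP element. A match is a description of these letters and not a binding site.

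IGF-1 changed the RNA of 8114 of the 15599 tested genes in IRKO astrocytes (52.0%, adjusted p under 0.05). Of these, 4195 rose (26.9%) and 3919 fell (25.1%), and the vehicle and IGF-1 libraries did not overlap for 7002 genes (44.9%). Most changes were small, with a median size of 0.34 on the log2 scale. Past 1.5-fold, 895 genes rose (5.74%) and 935 fell (5.99%), and past 2-fold 280 rose (1.79%) and 304 fell (1.95%). The genes with the largest rises included enzymes of cholesterol synthesis, a lipid transporter, a tubulin and secreted ligands, and those with the largest falls included a ubiquitin ligase, an autophagy gene (Wdr45) and an IGF-binding-protein protease.

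**Figure D1:**
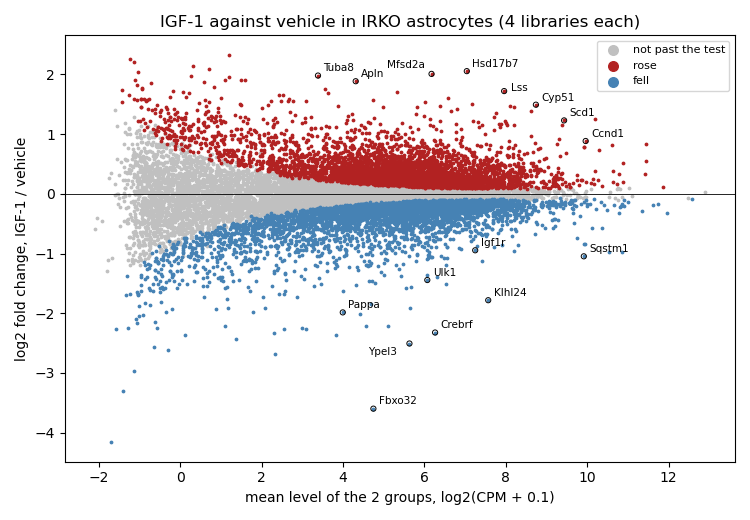
Log2 fold change between IGF-1 and vehicle in IRKO astrocytes (vertical axis) against the mean level of both groups on a log2 axis of CPM plus 0.1 (horizontal axis), 1 point per tested gene, red for the 4195 that rose, blue for the 3919 that fell and grey for the rest. Fbxo32 lies lowest among the labelled genes, at -3.60, and Hsd17b7 highest, at 2.05.

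Fbxo32 (atrogin-1, a subunit of a ubiquitin ligase known from muscle wasting, chr15:58175879-58214932, minus strand) had the largest fall among genes with a mean log2 CPM of at least 2. Genes ranked here also had to pass the test without overlap between the groups, so their separation was fixed by this rule. Fbxo32 was at 46.2, 51.5, 52.2 and 47.9 CPM with vehicle and at 4.94, 5.05, 3.03 and 3.27 CPM with IGF-1. The log2 fold change was -3.60 (SE 0.121, adjusted p = 3.58e-26), a level 12.1-fold lower. Ypel3, a member of the yippee family (chr7:126776955-126780514, plus strand), went from 72.5, 80.4, 86.1 and 98.0 CPM to 17.2, 15.5, 13.7 and 12.8 CPM. The fall was -2.51 (SE 0.0838, adjusted p = 3.07e-26), with the vehicle libraries more scattered than the IGF-1 libraries. Crebrf, a regulator of the CREB3 transcription factor (chr17:26715650-26776635, plus strand), was at 132, 127, 121 and 132 CPM and then at 23.8, 27.9, 25.2 and 25.2 CPM, a log2 fold change of -2.32 (SE 0.063, adjusted p = 2.03e-29). The other largest falls were C530044C16Rik (-2.37), Galnt15 (-2.26), Cdo1 (cysteine dioxygenase, -2.26), N4bp2l1 (-2.24), Tmem140 (-2.22), Tcp11l2 (-2.21), Wdr45 (-2.01), Pappa (-1.99) and Nipal3 (-1.91). Tmem140 and Wdr45 overlap other genes over 37.0% and 24.7% of their exons, and their values are uncertain for that reason.

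Hsd17b7, a sterol reductase of cholesterol synthesis (chr1:169949535-169969241, minus strand), had the largest rise by the same rule. It was at 54.2, 47.5, 51.1 and 51.7 CPM with vehicle and at 210.4, 217, 212 and 209.7 CPM with IGF-1. The libraries of each group lay close together, and the log2 fold change was 2.05 (SE 0.0536, adjusted p = 8.81e-30), or 4.15-fold. Mfsd2a, a carrier that brings lysophospholipids with omega-3 fatty acids into cells (chr4:122946850-122961188, minus strand), rose from 28.6, 27.7, 31.4 and 27.3 CPM to 119.8, 115, 114.9 and 112.5 CPM, a log2 fold change of 2.01 (SE 0.0527, adjusted p = 9.12e-30). Tuba8, an alpha-tubulin (chr6:121210696-121226854, plus strand), was low under vehicle, at 2.72 to 5.51 CPM, and at 15.4 to 18.3 CPM with IGF-1 (log2 fold change 1.98, SE 0.119). Apln, which encodes the peptide ligand apelin (chrX:48025146-48034853, minus strand), went from 7.56 to 8.97 CPM up to 29.4 to 32.7 CPM (1.89, SE 0.0781). Other large rises were Rab27b, a GTPase of vesicle secretion (1.76), Lss, the lanosterol synthase (1.72), Tnfrsf12a, the TWEAK receptor (1.71), Shh, the Sonic hedgehog ligand (1.69), Prokr1, a prokineticin receptor (1.66), Ngef, a guanine nucleotide exchange factor (1.66), and Idi1, an isomerase of the mevalonate pathway (1.61).

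**Figure D2:**
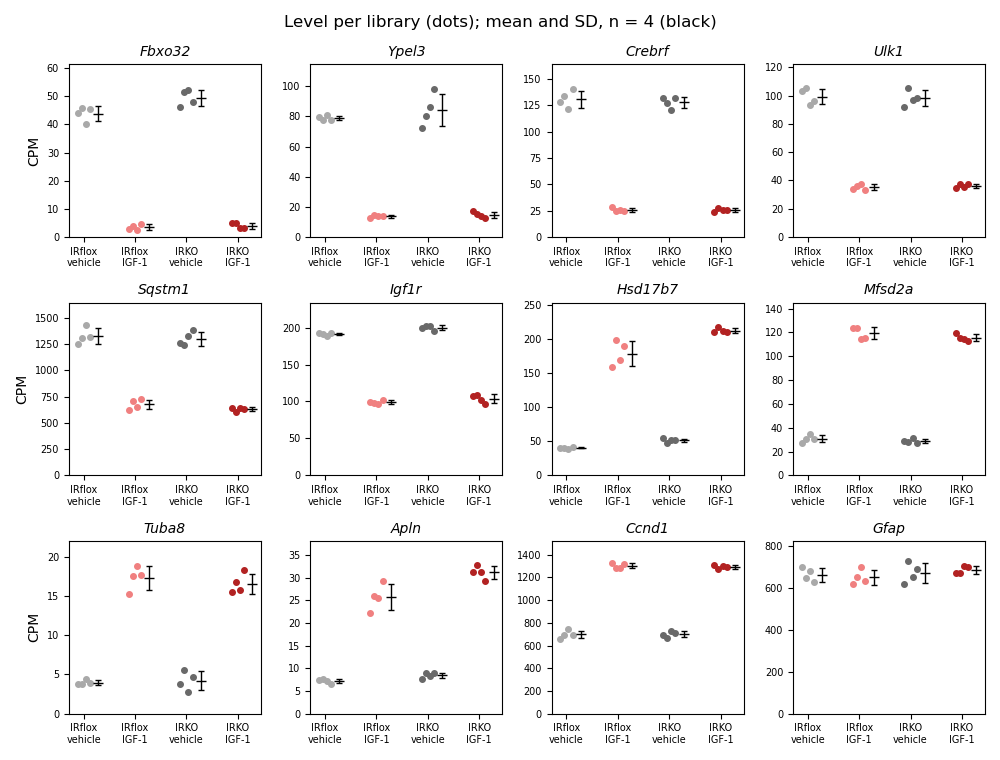
Level in CPM of 12 genes in each of 4 groups, with 1 dot per library and the mean and SD of the 4 libraries in black, each vertical axis starting at 0. Fbxo32, Ypel3, Crebrf, Ulk1, Sqstm1 and Igf1r are lower and Hsd17b7, Mfsd2a, Tuba8, Apln and Ccnd1 higher with IGF-1 in both genotypes, while Gfap overlaps between treatments.

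Receptors and adaptors mostly fell. Of 13 members tested, 8 fell and 2 rose, with a median log2 fold change of -0.15 against -0.001 over all tested genes. Igf1r was at 199.8, 202.8, 202.1 and 195.3 CPM with vehicle and at 107.6, 109.2, 102.1 and 96.3 CPM with IGF-1. The receptor's own RNA was thus lower in each treated library, by a log2 fold change of -0.95 (SE 0.0393, adjusted p = 4.18e-23). Gab1, a docking protein of receptor tyrosine kinases (-0.46), Insr (-0.41), Irs1 (-0.32) and Irs2 (-0.15) also fell, with Irs1 uncertain because 30.9% of its exons overlap another gene. The members that rose were Grb10 (0.54) and Grb14 (0.96), adaptors that dampen insulin and IGF receptor signalling. They were picked out after their values were seen, as were all genes named outside the fixed rule.

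Genes that set the amount of free IGF moved in both directions: of 11 tested ligands, binding proteins and proteases, 4 rose and 4 fell (median 0.07). Pappa, the protease that frees IGF from Igfbp4, was at 26.1, 26.8, 24.7 and 23.6 CPM and then at 5.45, 7.11, 6.84 and 6.17 CPM. The fall was -1.99 (SE 0.0918, adjusted p = 1.69e-21). Stc1, a stanniocalcin that can inhibit this protease, rose from 0.936 to 1.5 CPM to 3.75 to 4.93 CPM (1.90, SE 0.194). Igfbp3, a binding protein that carries IGF in the circulation, rose from 392 to 468 CPM to 755 to 816 CPM (0.84, SE 0.0543), Igfbp5 rose by 0.40 and Igfbp2 by 0.19. Igf1 itself fell from 38.7 ± 2.44 to 27.7 ± 2.1 CPM (SD, n = 4; log2 fold change -0.48), and Pappa2 (-0.74) and Igfbp7 (-0.11) were the other falls. The call of Pappa2 was lost without any 1 of the 4 IGF-1 replicates or vehicle replicate 1 or 3 (adjusted p 0.0668 to 0.176), and that of Igfbp7 without IGF-1 replicate 2 or 4 or vehicle replicate 3 or 4 (0.0607 to 0.109). Igfbp4, the main substrate of Pappa, was at 75.2 ± 7.23 and 69.2 ± 4.66 CPM (SD, n = 4; log2 fold change -0.12) and did not pass the test. It did so without IGF-1 replicate 2 or vehicle replicate 1 or 4 (adjusted p 0.0176 to 0.0201). Igfbp4 also passed with upper-quartile scaling, library size alone, either other filter or only the compared groups (adjusted p 0.0298 to 0.0474).

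In the PI3-kinase, AKT and mTORC1 list 12 of 30 members fell and 7 rose (median -0.03). The shares over all tested genes were 25.1% falling and 26.9% rising. Pik3ip1, an inhibitor of PI3-kinase, went from 109.4 to 121.7 CPM down to 41.2 to 47.4 CPM (-1.40, SE 0.0514). Sesn3, a sestrin that restrains mTORC1 (-1.12), and Pik3ca, a catalytic subunit of PI3-kinase (-0.70), fell as well.

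The FOXO list holds the FOXO factors and genes they are known to activate, and 22 of its 30 tested members fell while 5 rose (median -0.53). The list was drawn up with results of these data known and is no independent evidence of direction. Klhl24, an adaptor of a ubiquitin ligase, was at 301.4, 297.6, 275.7 and 300.4 CPM with vehicle and at 87.3, 91.7, 79.8 and 82.9 CPM with IGF-1 (-1.78, SE 0.0434, adjusted p = 2.31e-30). Mxi1, a repressor that competes with Myc (-1.50), Ccng2, an atypical cyclin linked to quiescence (-1.46), and Pdk4, which inhibits pyruvate dehydrogenase (-1.72), fell in the same list. The factors themselves moved less: Foxo3 fell from 173.5 ± 8.17 to 141.7 ± 4.97 CPM (SD, n = 4; log2 fold change -0.29), and Foxo1 did not pass the test (39.8 ± 2.82 and 42.0 ± 3.93 CPM, SD, n = 4; adjusted p = 0.288). The 5 members that rose were Foxo6 (1.18), Nfil3 (0.32), Sod2, the mitochondrial superoxide dismutase (0.23), Tob1 (0.15, adjusted p = 0.0797 without IGF-1 replicate 2 and 0.0853 without vehicle replicate 1) and Zfp91 (0.13).

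Genes that start autophagy fell more often than they rose. Of 23 genes of initiation and phagophore growth, 18 fell and 2 rose (median -0.51). Ulk1, the kinase that starts autophagy, was at 92.2, 105.5, 97.0 and 98.0 CPM with vehicle and at 34.6, 37.2, 35.3 and 37.3 CPM with IGF-1. The highest treated library was far below the lowest vehicle library (-1.44, SE 0.0539, adjusted p = 1.08e-24). Wipi1, which binds the growing membrane (-1.12), Zfyve1 (-1.04) and Atg13, a partner of Ulk1 (-1.04), fell by similar amounts, and Tmem41b (0.47) and Wdr45b (0.17) rose. In the ATG8 family and its conjugation system 6 of 16 fell and 3 rose (median -0.14), with the share called near the 52.0% over all tested genes. Gabarapl1 (-0.80) and Map1lc3b (-0.65), which encode the small proteins that are attached to autophagosome membranes, and Atg12 (-0.40) fell, while Atg16l1 (0.33), Atg4d (0.23) and Atg3 (0.19) rose. Among 19 receptors of selective autophagy and mitophagy genes 12 fell and 3 rose (median -0.47). Sqstm1 (p62), an abundant cargo receptor, went from 1257, 1240, 1326 and 1384 CPM to 645, 602, 644 and 628 CPM (-1.05, SE 0.0447, adjusted p = 1.07e-22). Calcoco1 (-1.52), Retreg1, a receptor for the endoplasmic reticulum (-1.21), and Bnip3, a mitophagy receptor (-0.50), fell too. Ncoa4, the ferritin receptor (0.27), Nufip1 (0.32) and Phb2 (0.46) rose.

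Lysosomal genes showed smaller falls: 25 of 31 fell and 0 rose, with a median of -0.19. Rragd, a GTPase that recruits mTORC1 to the lysosome, fell from 87.9 to 93.4 CPM to 40.9 to 44.4 CPM (-1.09, SE 0.0552). Fnip1 (-0.75) and Flcn (-0.62), partners that act on these GTPases, and Npc1, the lysosomal cholesterol exporter (-0.51), fell next most. Tfeb, the factor that drives many lysosomal genes, was at 16.5 ± 1.55 and 14.9 ± 0.951 CPM (SD, n = 4; log2 fold change -0.14) and did not pass the test (adjusted p = 0.193). Microglia are rich in lysosomal RNA, and 12 of 15 microglia markers also fell (median -0.24), among them Cx3cr1 (-0.37) and Csf1r (-0.27), as did their summed level given above. The lysosome and microglia lists share 1 gene. Fewer microglia and less RNA per microglial cell cannot be told apart in these libraries, and their part in the lysosomal result was not tested.

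**Figure D3:**
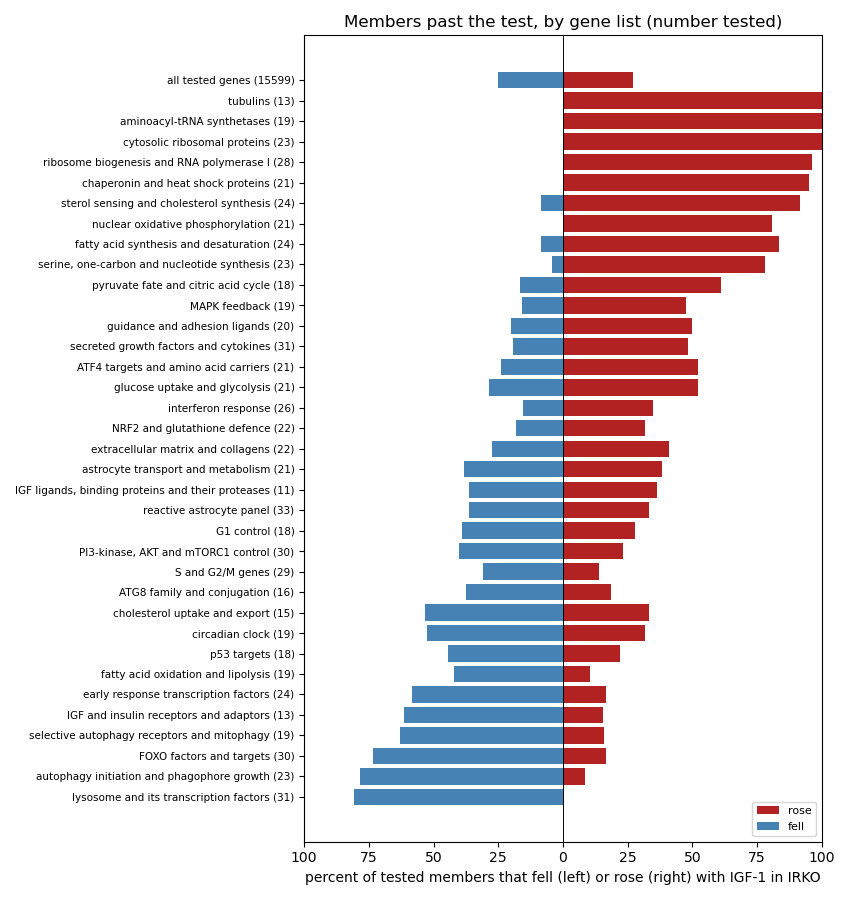
Percent of the tested members of 35 gene lists that fell (blue, to the left) or rose (red, to the right) with IGF-1 in IRKO astrocytes, with the number tested in brackets and all 15599 tested genes on top. Tubulins, aminoacyl-tRNA synthetases and cytosolic ribosomal proteins rose in every tested member, and the lysosome list holds 25 falls of 31.

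Cholesterol synthesis rose almost as a block. Of 24 genes 22 rose and 2 fell, with a median log2 fold change of 1.29. Cyp51, a sterol demethylase, was at 226, 216, 222 and 232 CPM with vehicle and at 631, 634, 615 and 641 CPM with IGF-1 (1.49, SE 0.0385, adjusted p = 7.26e-30). Both groups were tight and far apart, which choosing list members by low p favours. Lss rose from 109 to 124 CPM to 375 to 397 CPM, Hmgcs1, an early enzyme of the pathway, by 1.26 and Idi1 by 1.61. Srebf2, the transcription factor of this pathway, rose by 0.38. The falls were Insig2 (-0.64) and Scap (-0.17), which hold SREBP in the endoplasmic reticulum and escort it out of it. Of 15 genes of cholesterol uptake and export, 8 fell and 5 rose (median -0.12). Stard4, a sterol transfer protein (1.28), Scarb1, a lipoprotein receptor (0.42), and the sterol sensor Nr1h3 (0.27) were among the rises, and Abca1, the exporter to lipoproteins, fell from 1255 to 1300 CPM to 691 to 728 CPM (-0.85, SE 0.0409). The call of Nr1h3 was lost without IGF-1 replicate 1 or 2 or vehicle replicate 2 or 3 (adjusted p 0.096 to 0.198). It was also lost with library size alone or upper-quartile scaling (0.0626 and 0.0616).

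Fatty acid synthesis followed with 20 rises and 2 falls among 24 genes (median 0.61). Scd1, a desaturase, was at 399, 400.4, 423 and 431 CPM and then at 962, 995, 961 and 955 CPM (1.23, SE 0.0326, adjusted p = 1.17e-29). Fasn, the fatty acid synthase (1.14), Elovl6, an elongase (1.23), Acaca, the carboxylase that makes malonyl-CoA (1.15), Acly (0.91) and Srebf1 (0.46) rose too. Acacb, the carboxylase linked to fatty acid oxidation (-0.50), and Gpam, an acyltransferase of triglyceride synthesis (-0.28), fell, Acacb not without IGF-1 replicate 1, 2 or 4 or vehicle replicate 2 or 3 (adjusted p 0.0521 to 0.15). In fatty acid oxidation and lipolysis 8 of 19 genes fell and 2 rose (median -0.12), with falls of -0.62 for Cpt1a, the gate for fatty acids into mitochondria, and -0.37 for the lipase Pnpla2, and rises of 0.57 for Mgll and 0.15 for Ppard. Over all tested genes 52.0% were called, near the share of this list, and 25.1% fell. Ppard lost its call without IGF-1 replicate 2 or 3 or vehicle replicate 1 or 4 (adjusted p 0.0981 to 0.18). It also did so with library size alone, upper-quartile scaling, no filter or only the compared groups (0.0574 to 0.0836).

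Central carbon genes moved less. In glucose uptake and glycolysis 11 of 21 rose and 6 fell (median 0.12): Slc16a1, a lactate carrier, rose from 257 to 275 CPM to 410.0 to 441 CPM (0.66, SE 0.0394), Ldha rose by 0.52, and Pfkp, a phosphofructokinase, fell (-0.41). In pyruvate and citric acid cycle genes 11 of 18 rose and 3 fell (median 0.14). The 3 falls were kinases that shut off pyruvate dehydrogenase: Pdk4, from 10.6 to 11.4 CPM down to 2.42 to 4.75 CPM (-1.72, SE 0.155), Pdk2 (-1.19) and Pdk1 (-0.21, adjusted p = 0.0654 without IGF-1 replicate 4). Of 21 nuclear genes of oxidative phosphorylation 17 rose and 0 fell (median 0.24), among them Cyc1 (0.50) and Cycs (0.53), subunit and carrier of the respiratory chain, while Ndufv1 (0.01) did not pass the test. Serine, one-carbon and nucleotide synthesis had 18 rises and 1 fall among 23 genes (median 0.41), with Impdh2, the rate-limiting enzyme of guanine nucleotide synthesis, at 59.7 ± 3.43 and 107.5 ± 1.6 CPM (SD, n = 4; log2 fold change 0.85). Psat1 of serine synthesis (0.71) and Cad of pyrimidine synthesis (0.64) rose as well, and Paics of purine synthesis fell (-0.20).

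The machinery of protein production rose nearly throughout. All 23 tested cytosolic ribosomal protein genes rose (median 0.37), as did all 19 aminoacyl-tRNA synthetases (median 0.36) and 27 of 28 genes of ribosome biogenesis and RNA polymerase I (median 0.66, 0 falls). Rrp12, which processes ribosomal RNA, was at 26.4, 27.2, 28.5 and 24.5 CPM with vehicle and at 59.6, 58.4, 65.0 and 58.6 CPM with IGF-1 (1.18, SE 0.0574, adjusted p = 9.89e-21). Each treated library was above each control, and 44.9% of all tested genes had groups without overlap in either direction. Polr1b, a subunit of RNA polymerase I (0.94), Nop56 (0.89) and Ddx21 (0.83), a nucleolar protein and helicase, rose with Rrp12. Ubtf (0.06) was the member that did not pass the test. Farsb, a subunit of the phenylalanine synthetase, rose by 0.83, and Rpl10a and Rpl14 rose by 0.56 and 0.44. Chaperonin and heat shock genes had 20 rises among 21 (median 0.45, 0 falls). Hspa8, a constitutive chaperone, went from 1090.0 to 1154 CPM up to 1940.0 to 2065 CPM (0.82, SE 0.0404), Hspa5 of the endoplasmic reticulum rose by 0.78 and Hsph1 by 0.80, and Dnajb1 was not past the test (0.13, adjusted p = 0.0297 without vehicle replicate 2). In the list of ATF4 targets and amino acid carriers 11 of 21 rose and 5 fell (median 0.19). Atf4 (0.56), Slc7a5 (0.79) and Slc7a1 (0.80) rose, and Slc6a9 (-0.66, uncertain, with 27.8% of its exons overlapped), Slc38a1 (-0.40), Slc38a2 (-0.34), Nupr1 (-0.28) and Slc3a2, the partner of Slc7a5 (-0.27), fell.

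All 13 tubulin genes rose (median 0.75). Tubb2a was at 215.5, 198, 222.4 and 241.3 CPM with vehicle and at 566, 551, 596 and 572 CPM with IGF-1 (1.38, SE 0.0436, adjusted p = 4.58e-27). Tubb2b (0.96), Tubb6 (1.15) and Tubb3 (1.55) rose too. Tubb3 is also a neuron marker and rose from 3.47 to 4.99 CPM to 11.0 to 14.5 CPM. Of the other 7 tested neuron markers, Stmn2 (0.43) and Nefm (0.82) rose and Syt1 (-0.70), Syp (-0.68) and Map2 (-0.20) fell, so the list did not move as one. Of these calls 4 were lost without 1 library: Nefm without IGF-1 replicate 2 or 3 or vehicle replicate 1, 2 or 3 (adjusted p 0.0515 to 0.227), Syt1 without IGF-1 replicate 2, 3 or 4 or vehicle replicate 1 or 4 (0.0508 to 0.196), Syp without IGF-1 replicate 1 or 2 or vehicle replicate 3 or 4 (0.0641 to 0.126) and Map2 without vehicle replicate 2 (0.0516). Nefm also lost its call with library size alone or upper-quartile scaling (adjusted p = 0.0553 and 0.0559). The part of neurons in the tubulin result was not tested.

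Genes that answer growth factors through the MAP kinases were mixed. Of 19 feedback inhibitors and targets of this branch 9 rose and 3 fell (median 0.19), beside 26.9% and 25.1% of all tested genes. Spry4, an inhibitor of receptor tyrosine kinase signalling, was at 21.8, 21.7, 22.1 and 19.7 CPM and then at 39.7, 34.7, 38.8 and 35.9 CPM (0.81, SE 0.0615, adjusted p = 1.49e-14). Spred3 (0.69), and the phosphatases Dusp7 (0.77), Dusp5 (0.85) and Dusp14 (1.04), rose, whereas Dusp1 (-0.57), Etv4 (-0.37) and Spry1 (-0.30) fell. Early response transcription factors were mostly lower at 6 h, with 14 of 24 falling and 4 rising (median -0.28). Mafk fell from 45.2 to 51.8 CPM to 22.5 to 27.1 CPM (-0.95, SE 0.0701), Jun by 0.41, Klf6 by 0.34 and Myc by 0.29 on the log2 scale. The rises were Fosl1 (0.74, uncertain, with 57.2% of its exons overlapped), Srf (0.38), Atf3 (0.22) and Maff (0.16). Maff lost its call without IGF-1 replicate 1, 3 or 4 or vehicle replicate 1 or 2 (adjusted p 0.0606 to 0.162). It also did so with library size alone or upper-quartile scaling (0.0636 and 0.071).

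Secreted factors and guidance molecules rose more often than they fell. Of 31 growth factors and cytokines 15 rose and 6 fell (median 0.20), beside 26.9% and 25.1% of all tested genes. Besides Apln and Shh, Vegfa, the main factor of vessel growth, went from 49.8, 51.4, 52.7 and 54.1 CPM to 98.0, 100.5, 91 and 100 CPM (0.91, SE 0.0525, adjusted p = 3.23e-18). Ereg (1.48), an epidermal growth factor receptor ligand, and Tnfsf11 (1.55) rose from low levels of 2.3 ± 0.324 and 2.78 ± 0.515 CPM, and Hbegf (0.85) rose as well. Bmp4 (-1.32) and Bmp2 (-0.52), bone morphogenetic proteins, were among the falls. Of 20 guidance and adhesion ligands and receptors 10 rose and 4 fell (median 0.16). Ephb2 rose by 0.76 and Tnc, a matrix protein of growing and reactive glia, by 0.66. Ntn4, a netrin, fell from 88.0 to 100.3 CPM to 34.4 to 39.5 CPM (-1.36, SE 0.0526), and Robo2 (-0.19), Sparcl1 (-0.19) and Sema6a (-0.18) fell by small amounts.

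Cell cycle genes moved in both directions. In G1 control 7 of 18 fell and 5 rose (median -0.12). The D cyclins, which couple growth factors to cell cycle entry, rose: Ccnd1 went from 695, 669, 727 and 712 CPM to 1311, 1275, 1299 and 1287 CPM (0.88, SE 0.0352, adjusted p = 9.74e-24, uncertain, with 23.4% of its exons overlapped), Ccnd2 rose by 0.70 and Ccnd3 by 0.43. Ccne2 (0.46) and Cdk4 (0.25) completed the rises, and Rbl2, a pocket protein that holds cells in quiescence, fell (-1.07). Genes of S phase and mitosis had 9 falls and 4 rises among 29 (median -0.07), and 16 did not pass the test. Over all tested genes 52.0% were called, so this list was not called more often than genes at large. Mcm7 (-0.69), Tpx2 (-0.43) and Cenpf (-0.35) fell, and Rrm2 (0.35), Ccna2 (0.25), Gins2 (0.17, uncertain, with 67.3% of its exons overlapped) and Ccne2 rose. Calls were lost for Gins2 without IGF-1 replicate 2 or 4 or vehicle replicate 1 (adjusted p 0.0597 to 0.0629) and with no filter (0.051). They were also lost for Ccna2 without vehicle replicate 2 (0.0553) and for Ccne2 without IGF-1 replicate 2 (0.0902).

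Astrocyte markers moved in both directions, and 9 of 13 passed the test, against 52.0% of all tested genes. Gfap, the intermediate filament of astrocytes, was at 619.6, 728.7, 650.0 and 688.5 CPM with vehicle and at 669.8, 668.3, 702.6 and 698.1 CPM with IGF-1. The groups overlapped, and the log2 fold change was 0.03 (SE 0.045, adjusted p = 0.636). Among 13 tested astrocyte markers 5 fell and 4 rose (median 0.02): Ndrg2 (-0.38), Sox9 (-0.35), Aldoc (-0.29), the glutamate carrier Slc1a3 (-0.27) and the water channel Aqp4 (-0.08) fell, and Fgfr3 (0.41), Aldh1l1 (0.32), Gja1 (0.19) and Atp1b2 (0.11) rose. Aqp4 lost its call without IGF-1 replicate 1 or 4 or vehicle replicate 2 or 4 (adjusted p 0.0574 to 0.0659). Atp1b2 lost its call without IGF-1 replicate 2 or vehicle replicate 1 or 4 (0.075 to 0.114). The same held for Atp1b2 with library size alone or upper-quartile scaling (0.053 and 0.0563). Astrocyte transport and metabolism genes were even, with 8 of 21 rising and 8 falling (median 0.06). A member of this list with a low p was Fabp7, a fatty acid binding protein of radial glia and immature astrocytes, at 146.4, 96.9, 127.4 and 121 CPM with vehicle and at 319, 329, 309 and 296 CPM with IGF-1 (1.35, SE 0.0645, adjusted p = 5.33e-21). The panel of reactive astrocyte genes had 11 rises and 12 falls among 33 (median -0.04), with rises in Ptx3 (0.79) and Nes, the filament nestin (0.62), and falls in Ggta1 (-0.49) and Gbp2 (-0.32). Oligodendrocyte lineage markers were also uneven: Olig1, from 117 to 125 CPM up to 205 to 218 CPM (0.80), Olig2 (0.81) and Pdgfra (0.19) rose, and Gpr17 (-1.82), Mbp (-0.37), Cnp (-0.31) and Cspg4 (-0.21) fell, of 9 tested. Gpr17 was at 0.18 to 0.23 CPM with IGF-1, so its change rests on few counts. Without 1 library the calls of Pdgfra (IGF-1 replicate 1 or 2 or vehicle replicate 4, adjusted p 0.0674 to 0.0985), Mbp (vehicle replicate 2, 0.0737) and Cspg4 (IGF-1 replicate 2, 0.0802) were lost. Of 5 tested ependymal markers Foxj1 (-0.35) and Rsph1 (-0.31) fell, of 9 fibroblast and mural markers Col1a1 rose (0.22) and Cspg4 fell, and of 5 endothelial markers Vwf fell (-1.40). Vwf belongs to a list that summed to only 9.32 to 11.5 CPM with IGF-1. Rsph1 lost its call without IGF-1 replicate 2 or vehicle replicate 2 or 4 (adjusted p 0.0556 to 0.094), and Col1a1 without IGF-1 replicate 2 or 4 or vehicle replicate 1 or 2 (0.0511 to 0.191).

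The same treatment of IRflox cells, in 8 other libraries, asked whether their IGF-1 response differs from that of IRKO cells, whose degree of receptor loss was not measured here. It changed 7930 of 15599 genes in IRflox (50.8%), 4121 up (26.4%) and 3809 down (24.4%). Of the 1761 genes changed past 1.5-fold in IRflox (11.3%), 1722 moved in the same direction in IRKO and 1523 (86.5%) did so past the test. For these genes the IRKO log2 fold change was a median of 0.937 times the IRflox one (quartiles 0.778 and 1.06), a ratio that selection on the IRflox value tends to lower. Across all tested genes Pearson's r between the genotypes' log2 fold changes was 0.812, a description over genes that are not independent replicates.

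A direct test of the difference between the genotypes called 0 of 15599 genes (0.0%) with edgeR's quasi-likelihood test. The smallest adjusted p was 0.223, and 822 genes (5.27%) had an unadjusted p under 0.05. DESeq2 called 2 genes, and edgeR without the filter on low counts called 19. For 11363 genes (72.8%) the 95% interval of the difference lay within 1.5-fold in either direction; for the others a difference of that size was not excluded by its interval. Fbxo32 fell by 3.64 in IRflox and by 3.60 in IRKO on the log2 scale, a difference of 0.04 (95% interval -0.37 to 0.45). Hsd17b7 rose by 2.16 and 2.05 (difference -0.10, interval -0.26 to 0.06), Ulk1 fell by 1.49 and 1.44 (difference 0.05, interval -0.12 to 0.21), Igf1r fell by 0.95 in both (difference 0.004, interval -0.11 to 0.12), and Ccnd1 rose by 0.90 and 0.88 (difference -0.02, interval -0.12 to 0.09). Among the 24 genes with the largest changes, the intervals of Cdo1 (-0.51, interval -0.95 to -0.08) and N4bp2l1 (-0.53, interval -0.98 to -0.07) left out 0, but their adjusted p-values were 0.871 and 0.882.

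**Figure D4:**
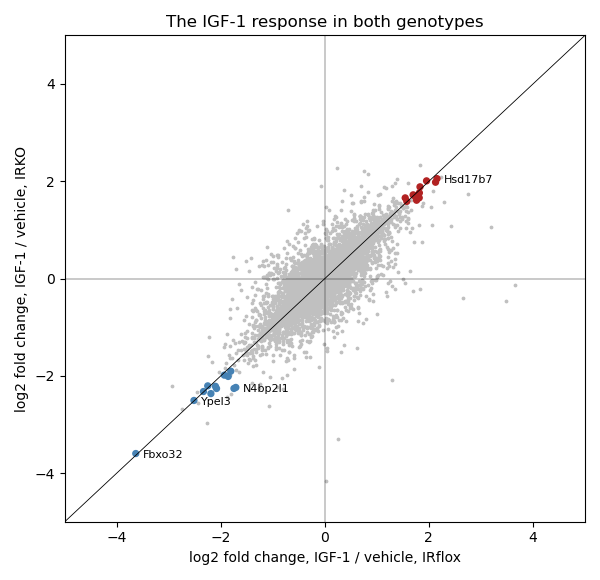
Log2 fold change between IGF-1 and vehicle in IRKO (vertical axis) against IRflox (horizontal axis) for each of 15599 tested genes, with the 12 largest rises in red, the 12 largest falls in blue and the line of equal response in black. Fbxo32, Ypel3 and Hsd17b7 lie close to the line, and N4bp2l1 lies below it at -2.24 against -1.71.

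The genes with the lowest p-values in this test give the size of the differences that were not called. Wnt5a, a secreted Wnt ligand, was at 86.3 ± 1.78 and 84.8 ± 1.44 CPM in IRKO and at 82.4 ± 1.43 and 66.7 ± 2.88 CPM in IRflox (vehicle and IGF-1; SD, n = 4), a difference in response of 0.28 (SE 0.0569, adjusted p = 0.223). Stat2, a transcription factor of the interferon response, rose in IRKO from 242.7 ± 13 to 303.5 ± 11.4 CPM and was at 267.2 ± 11 and 274.9 ± 13.2 CPM in IRflox (SD, n = 4; difference 0.28, SE 0.0598, adjusted p = 0.223). Efr3b (0.46, adjusted p = 0.268), Sema6a (0.27, adjusted p = 0.279) and Zbtb7c (0.42, adjusted p = 0.279) came next, along with Ltb, which stayed under 1 CPM in each IRKO library (-3.39, adjusted p = 0.231). In the list of interferon genes 9 of 26 rose and 4 fell in IRKO (median 0.05), where Mx1 rose by 0.53 and Gbp2, Irf1 (-0.30), Ifit2 (-0.25) and Gbp3 (-0.14) fell, while in IRflox 5 rose and 10 fell (median -0.03). Over all tested genes 52.0% were called in IRKO and 50.8% in IRflox, near the shares of this list. No interferon gene passed the test of the difference, whose median over the list was 0.11 against 0.001 over all tested genes. The sterol list had 22 rises and 2 falls in IRflox as well (median 1.27), and the FOXO list 22 falls and 3 rises (median -0.54). Ribosomal proteins rose in all 23 members in IRflox (median 0.38), and 24 of 31 lysosomal genes fell and 1 rose (median -0.21).

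IGF-1 was also set against insulin in IRKO cells, at the same dose and time, since both hormones can act on Igf1r. Both treatments changed many genes against the vehicle libraries they share: insulin changed 7239 genes (46.4%) and IGF-1 8114. The direct test found 417 genes that differed between the hormones (2.67%), 251 higher with IGF-1 (1.61%) and 166 lower (1.06%). The differences were small, with a median size of 0.24 on the log2 scale, and 19 exceeded 1.5-fold (0.122%). The libraries of both hormones did not overlap for 1387 genes (8.89%). With upper-quartile scaling the split was 217 higher and 221 lower. The number of calls was below 417 whichever IRKO IGF-1 or insulin library was left out. It ranged from 267 without insulin replicate 1 to 402 without insulin replicate 4. The number lower with IGF-1 was 81 without insulin replicate 1 or 3, 92 without IGF-1 replicate 3 and 79 without IGF-1 replicate 4. A smaller group also has less power, so these counts do not show dependence on a particular library.

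Sox7, a transcription factor, was the most above its insulin level with IGF-1 among genes with non-overlapping libraries whose log2 CPM averaged 2 or more. It was at 12.2, 13.7, 14 and 10.1 CPM with IGF-1, at 6.66, 6.08, 7.38 and 7.00 CPM with insulin and at 5.26 to 6.85 CPM with vehicle. The log2 difference between IGF-1 and insulin was 0.88 (SE 0.122, adjusted p = 7.62e-06). Cemip, which takes part in the breakdown of hyaluronan, was at 92.8 to 106.9 CPM with IGF-1 and 51.2 to 67.8 CPM with insulin (0.70, SE 0.0716, adjusted p = 1.17e-08), and insulin against vehicle was -0.03 (adjusted p = 0.765). Ereg (0.88), Epb41l4aos (0.66), Tnfsf11 (0.64) and the chemokine Ccl20 (0.63) were the other leading genes in this direction. Tmem229a led the opposite direction, at 8.73, 8.86, 9.5 and 7.77 CPM with IGF-1 and 16.6, 13.6, 15.6 and 14.9 CPM with insulin, with vehicle higher still at 17.3 to 21.5 CPM (-0.80, SE 0.108, adjusted p = 4.62e-06). Then came 4930578M01Rik (-0.73), Megf6 (-0.69), Ip6k3 (-0.63), Lrrc75b (-0.53) and Mro (-0.53). Megf6 stood at 5.30 to 7.40 CPM with IGF-1 and 5.65 to 6.79 CPM with vehicle, and insulin raised it to 8.32 to 11.4 CPM. Of these 12 genes, 3 lost their call without 1 library: Epb41l4aos (adjusted p = 0.0751 without IGF-1 replicate 3 and 0.064 without insulin replicate 1), Ip6k3 (0.0571 without IGF-1 replicate 1 and 0.0792 without insulin replicate 3) and Mro (0.0525 without insulin replicate 3).

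**Figure D5:**
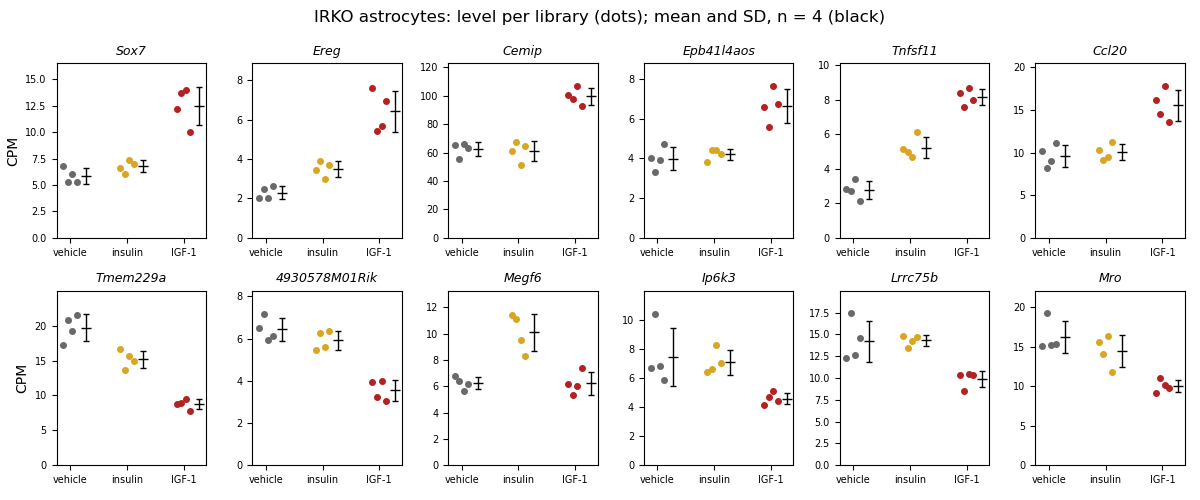
Level in CPM of the 6 genes most above (top) and the 6 most below (bottom) the insulin level in IGF-1-treated IRKO astrocytes, with 1 dot per library for vehicle, insulin and IGF-1, the mean and SD of 4 libraries in black and each axis starting at 0. Mean Cemip is 62.5 CPM with vehicle, 61.2 CPM with insulin and 99.5 CPM with IGF-1, and Megf6 is highest with insulin, at 10.1 CPM.

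By gene list, members that differed between the hormones included genes of sterol synthesis, fatty acid synthesis, MAP kinase feedback and secreted factors. Of 24 sterol genes 10 were higher with IGF-1 and 0 lower (median difference 0.17 against -0.001 over all tested genes), including Hsd17b7 (0.33, adjusted p = 2.76e-05) and Lss (0.31). Of 19 genes of MAP kinase feedback 8 were higher and 0 lower (median 0.17): Dusp4 (0.45), Dusp6 (0.43), Spry4 (0.31), Dusp7 (0.28), Spred3 (0.28), Etv5 (0.22), Phlda1 (0.20, uncertain, with 33.0% of its exons overlapped) and Spred1 (0.17). Dusp4 was at 19.3 ± 1.85 CPM with IGF-1 and 18 ± 1.39 CPM with vehicle (SD, n = 4), so that here the difference from insulin was not matched by a call against vehicle (adjusted p = 0.358). Dusp6 rose against vehicle, but that call was lost without IGF-1 replicate 4 or vehicle replicate 2 (adjusted p = 0.0773 and 0.104). Insulin against vehicle raised 8 of the 19 feedback genes and lowered 7 (median -0.06). Of 31 secreted factors 8 were higher with IGF-1 and 1 lower, among them Shh (0.58), Hbegf (0.39) and Ereg, and the lower one was Tgfb2 (-0.28). Fatty acid synthesis had 7 higher and 2 lower of 24, the lower ones being Srebf1 (-0.18) and Gpam (-0.19). In the FOXO list 4 of 30 were lower with IGF-1 and 0 higher. Fbxo32 was at 4.07 ± 1.07 CPM with IGF-1 and 6.1 ± 0.846 CPM with insulin (SD, n = 4; -0.58, adjusted p = 0.0307). The others were Pik3ip1 (-0.35), Bbc3 (-0.27) and Klhl24 (-0.16). Igf1r was 0.15 higher with IGF-1 than with insulin (adjusted p = 0.0394).

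The IRflox libraries, which share none with the IRKO comparison, gave the same contrast a second time, and 404 genes differed there (2.59%). Of the 251 genes higher with IGF-1 than insulin in IRKO, 247 had the same direction in IRflox and 116 also passed the test there. Of the 166 lower genes, 161 had the same direction and 70 passed the test. Against the IRflox vehicle libraries, 217 of the 251 rose with IGF-1 and 8 fell, and of the 166 lower genes 126 fell and 11 rose. Sox7 (0.66), Cemip (0.54), Ereg (0.83) and Tnfsf11 (0.59) were higher with IGF-1 in IRflox past the test too, and Tmem229a (-0.43), Ip6k3 (-0.65) and Lrrc75b (-0.55) lower. Epb41l4aos (0.48), Ccl20 (0.31), 4930578M01Rik (-0.34), Megf6 (-0.14) and Mro (-0.25) were not past the test in IRflox.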

How the data were processed

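Gene counts were deposited by the authors as 1 table per library, raw and not normalised. Of upstream tools, mm10, R 4.0.4, DESeq2, STAR 2.7.7a and edgeR are listed without roles, per the submitters' processing notes. The annotation and counting program were not given in the sources used. Lines that name no gene entered neither the library sizes nor the tests, and their share is given as reads outside genes. Counting did not use strand, per the labels' protocol for non-stranded libraries, so genes that overlap on either strand can share reads, and genes with over 20% of their exons overlapped are marked uncertain.

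From the counts, edgeR 4.0.16 (R 4.3.3) was run with its quasi-likelihood test on all 24 libraries with 1 mean per group, TMM scaling and filterByExpr (minimum count 10, minimum total 15), which kept 15599 of 32719 genes, and p-values were adjusted over all tested genes by Benjamini-Hochberg with a threshold of 0.05. All adjusted p-values in the text are from edgeR unless DESeq2 is named. CPM values use TMM-scaled library sizes, and SE is that of the log2 fold change. The scripts were tested on simulated counts. The named genes were the 12 largest rises and falls that passed the test without overlap between groups at a mean log2 CPM of at least 2, the 6 largest in each direction against insulin, the 3 lowest-p members of each list, and 18 set genes; other genes were named after their values were seen, and some genes that the rule names are not reported here. Members and gene lists were chosen with earlier results of these data known. Alternatives were DESeq2 1.42.0, other scalings (library size, RLE, upper quartile), other filters, a fit of only the groups compared, a replicate block and each replicate left out. In the lists, Aldoa, Atp5o and Ddit3, each with more than 1 identifier in the files, and Mars were not matched. Counts limit the precision of low genes, and no interval covers more than the spread between libraries. Promoters were taken from RefSeq (GRCm38.p6).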

Additional observations from a re-analysis of the deposited data

Results flagged for a closer look

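Across 494 groups of 4 libraries (the 4 vehicle or 4 IGF-1 values of each named gene, and of the gene counts and reads outside genes), 29 held 1 library that stood apart from the other 3 by Dixon's criterion, which chance alone passes in about 5% of groups. No cause was tested for any of them. In vehicle replicate 2 these were Tcp11l2 at 49.7 CPM, Mro at 19.2 CPM, Slc16a1 at 257 CPM, Ptx3 at 610.0 CPM, Dusp4 at 15.96 CPM, Igfbp5 at 421 CPM and Slc38a1 at 295 CPM. In vehicle replicate 1 they were Aldoc at 104.5 CPM, Ccnd3 at 66.8 CPM, Ccng1 at 542 CPM, Hmox1 at 333 CPM and Mx1 at 59.8 CPM, and in replicate 3 Galnt15 at 10.5 CPM, Klhl24 at 275.7 CPM and Slc7a1 at 38.8 CPM. Vehicle replicate 4 stood apart for Spry4 at 19.7 CPM.

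Among the IGF-1 libraries, replicate 2 stood apart for Lrrc75b at 8.48 CPM, Pnpla2 at 87.7 CPM, Slc7a1 at 59.8 CPM, Rpl10a at 219 CPM and Csf1r at 277 CPM. Replicate 1 did so for Tnc at 272 CPM, Aldh1l1 at 289 CPM, Stmn2 at 75.3 CPM, Scap at 170.3 CPM and Gpr17 at 0.230 CPM, replicate 3 for Cdo1 at 3.87 CPM and Foxo3 at 134 CPM, and replicate 4 for Spred3 at 78.3 CPM. The 4 Cdo1 values remained below the lowest vehicle value of 13.6 CPM, as the rule that named this gene required.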

How the results depend on the processing

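The number of genes changed by IGF-1 in IRKO stayed between 7554 and 8110 over 16 alternatives, against 8114, while the balance of rises to falls turned with the scaling: 3829 to 4277 with library size alone, 3815 to 4295 with upper-quartile scaling and 4069 to 4025 with RLE. Of 261 genes followed, 29 gained or lost their call against vehicle under at least 1 alternative and 0 reversed. Of 42 gene lists, each followed in both directions, 10 counts of rises or falls moved by over 1.5 times. With 1 replicate left out, the falls among IGF ligands and binding proteins ranged from 2 to 4 (2 without IGF-1 replicate 4 or vehicle replicate 3), those in fatty acid synthesis from 1 to 3 (1 without IGF-1 replicate 1, 2 or 4 or vehicle replicate 2 or 3), those of neuron markers from 1 to 2 (3 with all; 1 without IGF-1 replicate 2 or vehicle replicate 4), those of ependymal markers from 1 to 2 (1 without vehicle replicate 4) and those of fibroblast and mural markers from 0 to 2 (0 without IGF-1 replicate 2, 2 without vehicle replicate 1). The rises ranged from 2 to 4 for S and G2/M genes (2 without IGF-1 replicate 2), 0 to 1 for lysosomal genes (1 without vehicle replicate 3), 1 to 2 for fatty acid oxidation and lipolysis (1 without IGF-1 replicate 2 or 3 or vehicle replicate 1 or 4) and 0 to 1 for fibroblast and mural markers (0 without IGF-1 replicate 2 or 4 or vehicle replicate 1 or 2). Oxidation and lipolysis also had 1 rise with library size alone, upper-quartile scaling, no filter or only the compared groups, and the falls in NRF2 and glutathione defence numbered 7 with only the compared groups, against 4. The test of the genotype difference gave 2 genes with DESeq2 and 19 with no filter, and IRflox replicates were not left out in turn. For IGF-1 against insulin in IRKO, leaving out 1 replicate gave 267 to 402 genes, with 79 to 148 lower with IGF-1. Against 417, there were 592 with only the compared groups, 581 with no filter and 540 with DESeq2. The split was 225 higher and 220 lower with library size alone. The causes were not tested. Genes under a few CPM rest on few counts, and their fold changes are the least precise.

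Replicate numbers did not pair the libraries: deviations of same-numbered IGF-1 and vehicle libraries correlated at -0.0595 to 0.011. With a replicate block, 8089 genes changed with IGF-1 (4202 up, 3887 down), 0 differed between genotypes and 428 differed from insulin (261 higher, 167 lower), and no named gene gained or lost a call.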

Other observations

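Circadian clock genes also moved with IGF-1 in IRKO astrocytes, with 10 of 19 members falling and 6 rising (median log2 fold change -0.13). Rora, a nuclear receptor that activates Arntl, was at 60.1, 60.7, 58.4 and 66.2 CPM with vehicle and at 22.7, 23.95, 23.4 and 24.9 CPM with IGF-1 (-1.37, SE 0.0626). The repressor Nr1d2 (-1.08) fell as well, and Arntl itself, a core factor of the clock, rose from 15.4 to 18.4 CPM to 26.3 to 30.2 CPM (0.73, SE 0.0753). Against insulin, 4 members were lower with IGF-1 and 0 higher, among them Dbp (-0.34), Nr1d2 (-0.25) and Tef (-0.13).

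Among 18 p53 targets 8 fell and 4 rose (median -0.004), beside 25.1% and 26.9% of all tested genes. Bbc3 (Puma), a promoter of apoptosis, fell from 59.0 to 75.8 CPM to 37.7 to 45.5 CPM (-0.78, SE 0.0723), and Fas, a death receptor, fell by 0.51 on the log2 scale. The rises were Gdf15 (0.37), Aen (0.37), Sesn2 (0.19) and Ccng1 (0.10), with Ccng1 not past the test without IGF-1 replicate 2 or 4 or vehicle replicate 4 (adjusted p 0.0639 to 0.067). Ccng1 also lost its call with library size alone, upper-quartile scaling or no filter (adjusted p 0.062 to 0.065). The list of NRF2 and glutathione genes had 7 rises and 4 falls among 22 (median 0.03), and 11 did not pass the test. The share called was near the 52.0% over all tested genes. Gss, the glutathione synthetase (0.74), and Txnrd1, a thioredoxin reductase (0.47), rose, and Cdo1 (-2.26), Hmox1 (-0.40), Nfe2l2 (-0.15) and Gstm1 (-0.11) fell, Gstm1 not without vehicle replicate 2 or 3 (adjusted p = 0.053 and 0.0604). In the extracellular matrix list 9 of 22 rose and 6 fell (median 0.02), and Col5a1 rose from 102.8 to 117.5 CPM to 169.6 to 180.2 CPM (0.65, SE 0.041).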
